A study of Mus musculus with 22 samples.

Results

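The 10 genes described here encode transcription factors that set the fate of CD8+ T cells, and they were taken by symbol and Ensembl identifier from the count table. All 10 members were found among 46603 genes and all 10 were among the 21183 genes tested. A total of 6 are treated as memory-linked (Tcf7, Lef1, Bach2, Id3, Eomes and Bcl6) and 4 as effector-linked (Tbx21, Id2, Prdm1 and Irf4). RNA of CD8+ T cells from spleen and lymph nodes of 8 mice was sequenced in bulk in 22 libraries that form 8 groups. The wt and KI mice (3 each) belong to the line Tcaim KI Cd4Cre, with the genotype labels wtcre and hocre, and the KO mice (2) belong to the line Tcaim KO Cd4Cre with the genotype label hocre. Cd4Cre is a Cre recombinase under Cd4 control, which acts in T cells as they mature in the thymus and so also in CD8+ cells. Each wt and KI mouse gave a naive (0 h) library and libraries after 24 h and 48 h on 2 µg/ml plate-bound anti-CD3 with 1 µg/ml soluble anti-CD28. Each KO mouse gave a naive and a 48 h library. Replicates are numbered by experiment (1, 3 and 5 for wt and KI, and 1 and 5 for KO), mice of experiments 1 and 3 were male in wt and KI and those of experiment 5 female, and both KO mice were female. Ages of the mice are not given in the sources used here.

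A CD8+ T cell that meets antigen divides and gives rise both to short-lived killers and to cells that persist as memory. The high mobility group proteins TCF-1 (from Tcf7) and LEF1, the repressors BACH2 and BCL6 and the E protein inhibitor ID3 are known for keeping T cells naive, stem-like or memory-prone. T-bet (from Tbx21), ID2 and BLIMP-1 (from Prdm1) are known for effector differentiation, IRF4 translates the strength of receptor signalling into expansion, and EOMES, a relative of T-bet, has roles in both fates.

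Total counts per library ranged from 62551905 to 93489115. Tcaim, the gene altered in the mice, was measured first: it had 14.8 ± 0.309 CPM in wt naive (SD, n = 3), 141 ± 3.28 in KI naive (SD, n = 3) and 17.2 ± 3.32 in the naive libraries labelled KO (SD, n = 2). CPM are counts scaled to the TMM-adjusted size of each library. At 48 h the values were 10.1 ± 1.65, 240 ± 17.1 and 8.82 ± 4 CPM in the same order, so the libraries labelled KO were not called lower than wt and are named by their label throughout. The summed level of 4 CD8 T cell markers (Cd3e, Cd3g, Cd8a and Cd8b1) was 2990 to 3630 CPM in wt naive, 2200 to 2470 CPM at 24 h and 1750 to 2250 CPM at 48 h, and in KI 3540 to 3760 CPM naive and 2060 to 2250 CPM at 48 h, so it too was lower than in naive cells without overlap. Sums for NK cells and for myeloid and dendritic cells were lower by more: NK cell markers (Ncr1, Klrb1c and Klre1) ranged from 14.7 to 47.6 CPM in wt naive libraries and from 0.691 to 1.35 CPM at 48 h, and the 6 myeloid and dendritic markers from 97.2 to 230 and from 14.2 to 22.7 CPM. CD4 T cell markers overlapped between naive and 48 h libraries, at 52.8 to 89.8 and 34.6 to 64.2 CPM in wt and 46.4 to 64.2 and 45.7 to 83.1 CPM in KI. Naive replicate 1 of the libraries labelled KO stood apart, with 283 CPM of CD4 T cell markers (Cd4, Zbtb7b, Foxp3 and Cd40lg) against 41 to 89.8 CPM in the other naive libraries, and 107 CPM of NK cell markers against 14.7 to 47.6 CPM. In bulk RNA, fewer cells of a type and less RNA per cell cannot be told apart. With upper-quartile scaling in place of TMM, higher calls against naive were 4527 of 10637 in wt at 24 h (5577 of 10233 with TMM), 5134 of 12315 in wt at 48 h (6258 of 11929), 3843 of 8552 in KI at 24 h (4857 of 8203) and 4572 of 10648 in KI at 48 h (5629 of 10303), and the median of all genes moved by -0.17 to -0.22 on the log2 scale. No called member changed direction under that scaling.

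RefSeq promoter sequences on GRCm38.p6 matched all 10 members in 15 windows, and the 250 bases before the start were searched on both strands for 6 motifs. The 5 windows below are among the 9 that carry no GENCODE exon. They belong to Tbx21 and Eomes, the related T-box pair, and to Prdm1, Bach2 and Lef1 at starts that lie inside the gene spans given with each gene. Capitals mark AP-1 (TGANTCA), TCF/LEF (CTTTGA), IRF (GAAANNGAA) and NFAT (GGAAAA) matches, read 5′ to 3′ on the strand of the gene.
Tbx21, chr11:97115332-97115581, minus strand: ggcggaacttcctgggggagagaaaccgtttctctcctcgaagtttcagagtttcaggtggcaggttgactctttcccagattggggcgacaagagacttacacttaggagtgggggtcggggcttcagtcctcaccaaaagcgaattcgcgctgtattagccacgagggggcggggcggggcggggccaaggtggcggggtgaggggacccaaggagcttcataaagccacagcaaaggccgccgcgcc
Eomes, chr9:118477939-118478188, plus strand: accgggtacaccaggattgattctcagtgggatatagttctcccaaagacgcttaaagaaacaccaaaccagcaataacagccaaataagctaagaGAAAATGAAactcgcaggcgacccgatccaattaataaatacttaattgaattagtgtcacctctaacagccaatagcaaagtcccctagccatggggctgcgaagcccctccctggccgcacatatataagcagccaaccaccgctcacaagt
Prdm1, chr10:44458749-44458998, minus strand: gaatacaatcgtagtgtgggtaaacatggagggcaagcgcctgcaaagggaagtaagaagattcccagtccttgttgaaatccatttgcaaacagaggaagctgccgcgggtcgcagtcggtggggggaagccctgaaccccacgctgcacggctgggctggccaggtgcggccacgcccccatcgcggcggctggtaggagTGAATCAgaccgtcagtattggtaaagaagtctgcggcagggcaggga
Bach2, chr4:32417185-32417434, plus strand: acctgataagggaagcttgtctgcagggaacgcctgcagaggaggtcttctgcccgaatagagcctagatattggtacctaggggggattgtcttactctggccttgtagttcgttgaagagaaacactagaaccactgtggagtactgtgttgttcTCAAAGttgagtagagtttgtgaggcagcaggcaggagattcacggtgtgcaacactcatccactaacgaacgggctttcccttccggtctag
Lef1, chr3:131156044-131156293, plus strand: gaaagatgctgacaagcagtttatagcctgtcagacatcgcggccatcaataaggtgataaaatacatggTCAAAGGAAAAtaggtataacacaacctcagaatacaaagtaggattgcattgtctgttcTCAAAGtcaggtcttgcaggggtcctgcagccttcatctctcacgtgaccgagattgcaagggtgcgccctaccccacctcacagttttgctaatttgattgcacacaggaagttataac
The Prdm1 window held 1 AP-1 match, the Eomes window 1 IRF match, the Bach2 window 1 TCF/LEF match and the Lef1 window 2 TCF/LEF matches, 1 of which overlaps an NFAT match. The Tbx21 window held none of these 4. Of the windows clear of exons that are not shown, 1 of Bcl6 held 1 TCF/LEF and 2 NFAT matches, and 1 of Lef1 held 2 NFAT matches. That of Tcf7 and the other of Bcl6 held none of the 4. No Lef1 window except that shown held a TCF/LEF match. Among all 32851 promoter windows of the same length, AP-1 was present in 6.75%, TCF/LEF in 13.8%, IRF in 7.13% and NFAT in 20.4%. NF-kB (GGGANTTTC, 0.941% of windows) was in no member window, and the E-box CANNTG was in 66.2% of all windows and is not marked. A match describes letters in a window and not a bound site.

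After stimulation, memory-linked and effector-linked factors did not move as 2 opposed blocks. In wt cells at 24 h, Bach2, Id3, Tbx21 and Irf4 rose and Tcf7, Lef1, Id2 and Prdm1 fell, so that each class had 2 members up and 2 down. At 48 h the 4 that rose were Id3, Eomes, Tbx21 and Irf4, and the same 4 were lower. That is 8 of 10 members called at each time by the edgeR quasi-likelihood test (adjusted p-value under 0.05), against 48.3% of all tested genes at 24 h (26.3% up and 22% down) and 56.3% at 48 h (29.5% up and 26.8% down). The median log2 change of the 10 members was 0.206 at 24 h and -0.128 at 48 h, beside -0.048 and -0.04 for all tested genes. Between 24 h and 48 h in wt, 1 member was called (7.49% of all genes).

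**Figure D1:**
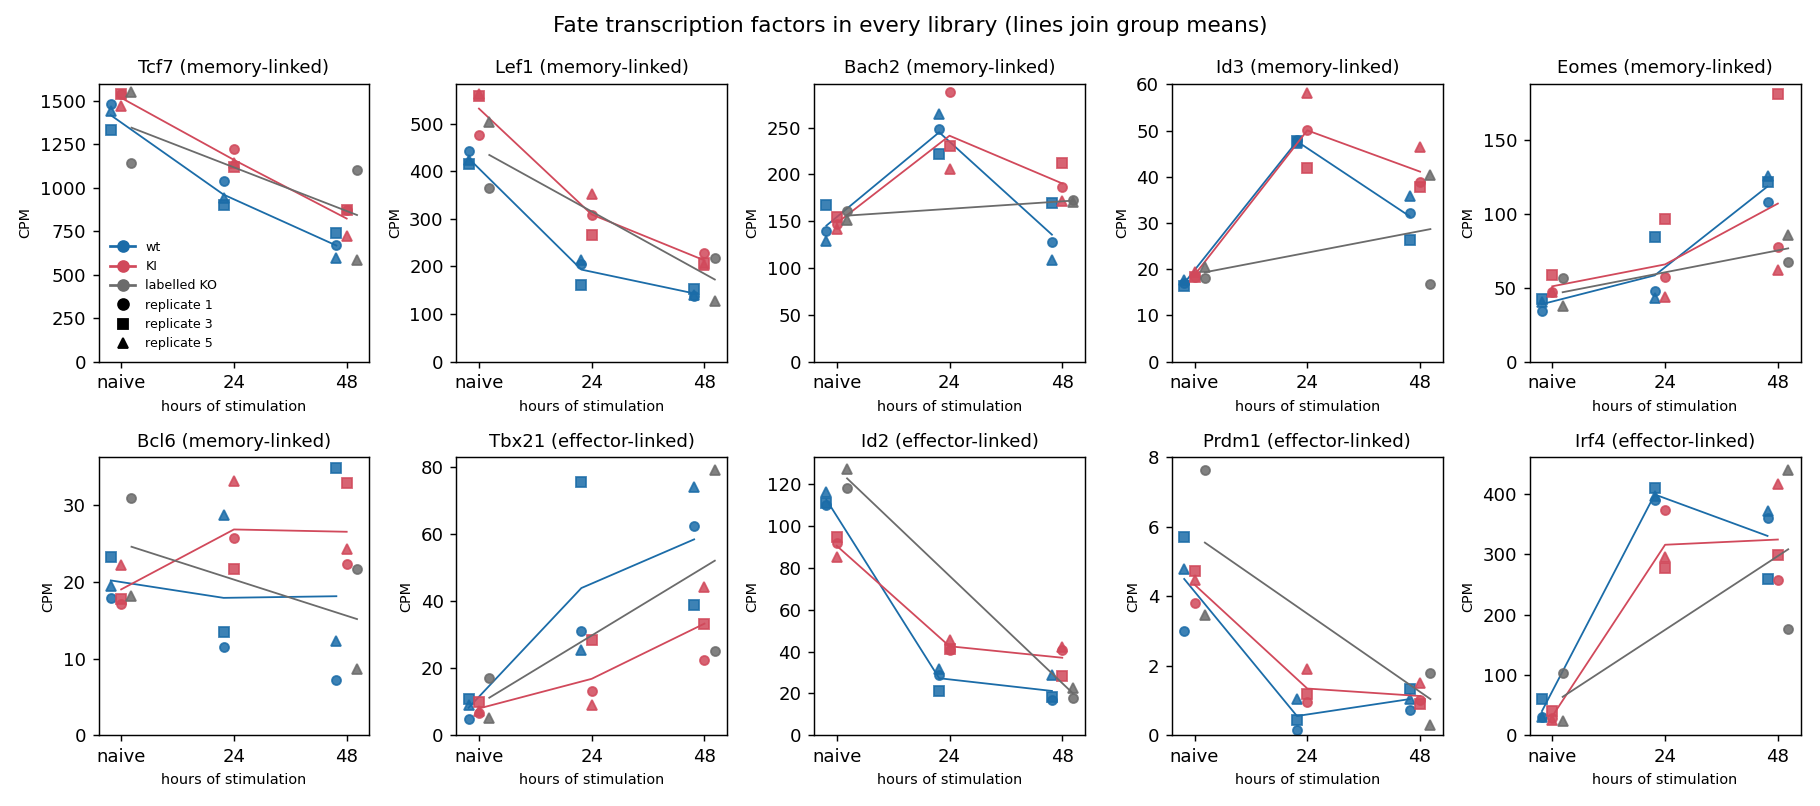
CPM of each factor (y axis) against hours of stimulation (x axis) in all 22 libraries, with wt in blue, KI in red and libraries labelled KO in grey. Symbols mark the replicate and lines join group means: group means of Tcf7, Lef1, Id2 and Prdm1 are lower after stimulation than in naive cells, those of Irf4 and Tbx21 higher, and Bach2 and Id3 are highest at 24 h in wt and KI.

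Tcf7 (ENSMUSG00000000782, GRCm38 chromosome 11, as for all positions, 52252371 to 52283014, minus strand) was the most abundant of the 10 in naive cells, at 641 ± 31.8 FPKM (SD, n = 3). FPKM here are the deposited length-scaled values and serve to compare genes. Its CPM in wt replicates 1, 3 and 5 were 1480, 1330 and 1440 naive, 1040, 898 and 943 at 24 h, and 669, 737 and 597 at 48 h, so that no 2 time points overlapped. The fall was -0.56 on the log2 scale at 24 h (adjusted p = 0.0112, SE 0.171) and -1.08 at 48 h (adjusted p = 3.42e-05, SE 0.173). The 24 h call was lost when wt replicate 1, 3 or 5 was left out, at values of -0.59 to -0.54. KI libraries had 1540, 1540 and 1470 CPM naive, 1220, 1120 and 1140 at 24 h, and 873, 874 and 721 at 48 h. These KI values also stepped down without overlap. In KI the log2 value at 24 h was -0.38 and not called (SE 0.171, adjusted p = 0.084), but it was called with DESeq2 (-0.48), with RLE (-0.48) or upper-quartile (-0.55) scaling and with the 2 groups alone (-0.45). By 48 h Tcf7 fell by 0.88 in KI (SE 0.172, adjusted p = 0.000354).

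Lef1 (ENSMUSG00000027985, chromosome 3, 131110471 to 131224356, plus strand), which encodes the partner of TCF-1 at Wnt-responsive and T cell identity genes, had larger log2 changes than Tcf7. Its wt values were 443, 414 and 424 CPM naive, 205, 161 and 214 at 24 h, and 138, 153 and 139 at 48 h. Among KI libraries they were 475, 557 and 562 naive, 308, 267 and 352 at 24 h, and 228, 208 and 202 at 48 h. Every KI library lay above every wt library of the same time. The log2 change from naive to 24 h was -1.14 in wt (adjusted p = 2.5e-05, SE 0.171) and -0.78 in KI (adjusted p = 0.0013, SE 0.17). From naive to 48 h it was -1.58 in wt (adjusted p = 4.35e-07, SE 0.173) and -1.32 in KI (adjusted p = 5.04e-06, SE 0.172). The ratio of Tcf7 to Lef1 on the log2 FPKM scale was 3.47 ± 0.0449 in wt naive and 3.96 ± 0.0989 at 48 h (SD, n = 3), and 3.26 ± 0.16 and 3.69 ± 0.12 in KI. Lef1 shares 1208 exon bases with the antisense gene Gm43352. Whether counting used strand is not given in the sources used here, so reads in the shared bases cannot be assigned to 1 of these 2 genes.

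Bach2 (ENSMUSG00000040270, chromosome 4, 32238804 to 32586108, plus strand) encodes a repressor that competes with AP-1 factors and restrains effector genes, Prdm1 among them. It had a peak at 24 h: wt values were 140, 167 and 129 CPM naive, 248, 222 and 265 at 24 h, and 128, 170 and 109 at 48 h. The 24 h libraries lay above all others of wt, and naive and 48 h libraries overlapped. Bach2 rose by 0.75 at 24 h (adjusted p = 0.000554, SE 0.154) and fell by 0.85 between 24 h and 48 h (SE 0.154, adjusted p = 0.00254), a call that was lost without wt replicate 1 (-0.80) or wt replicate 5 (-0.66) and with the 2 groups alone. KI libraries had 147, 155 and 142 CPM naive, 288, 230 and 206 at 24 h, and 187, 212 and 172 at 48 h. The KI rise at 24 h was 0.71 (SE 0.154, adjusted p = 0.00132), and the 48 h libraries were still above all naive ones, with a log2 difference of 0.36 (SE 0.153, adjusted p = 0.057, and 0.0411 with experiment as a replicate block). Bach2 shares 537 exon bases with its antisense gene Bach2os, with the same limit on strand.

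Prdm1 (ENSMUSG00000038151, chromosome 10, 44437177 to 44528501, minus strand), whose product BLIMP-1 drives terminal effector differentiation, was the least abundant of the 10, at 0.976 ± 0.304 FPKM in wt naive (SD, n = 3), and its lowest count in any library was 12. Its wt values were 3, 5.71 and 4.8 CPM naive, 0.17, 0.447 and 1.06 at 24 h, and 0.739, 1.34 and 1.06 at 48 h. It fell by 2.99 on the log2 scale at 24 h (adjusted p = 0.000458, SE 0.6). The 48 h value was 2.11 below naive, a log2 change of -2.11 (adjusted p = 0.00449, SE 0.575). Naive KI libraries had 3.8, 4.74 and 4.48 CPM, against 0.97, 1.18 and 1.9 at 24 h and 1.01, 0.893 and 1.5 at 48 h. Stimulated libraries of wt and KI therefore lay below every naive one. The KI changes were -1.68 (adjusted p = 0.0243, SE 0.565) and -1.94 (SE 0.573, adjusted p = 0.00923), the former lost without KI replicate 1, 3 or 5 (-1.95 to -1.52) and the latter without KI replicate 1 (-1.95) or 3 (-1.72). Marker sums of NK cells and of myeloid and dendritic cells were also lower after stimulation, all 3 and all 6 markers being detected in naive wt and KI libraries. In KI the NK sum ranged from 19.6 to 29.4 CPM naive and from 1.04 to 1.99 at 48 h. The part of such cells in the fall of Prdm1 was not tested.

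Bcl6 (ENSMUSG00000022508, chromosome 16, 23965052 to 23988852, minus strand), a repressor that opposes BLIMP-1, was called in no comparison. Its wt values were 17.9, 23.2 and 19.4 CPM naive, 11.5, 13.5 and 28.7 at 24 h, and 7.24, 34.8 and 12.3 at 48 h. The 48 h range spanned all naive values, with replicate 3 high and replicate 1 low. In KI it had 17.1, 17.7 and 22.2 CPM naive, 25.7, 21.6 and 33.1 at 24 h, and 22.3, 32.9 and 24.3 at 48 h. The log2 changes against naive were -0.17 and -0.16 in wt and 0.49 and 0.48 in KI, each with an SE of 0.449, and the wt values changed sign when single mice were left out. With the 2 groups alone, the KI value at 48 h was called (0.46, adjusted p = 0.0312). Bcl6 shares 21 exon bases with Gm37419 on the opposite strand. On the log2 FPKM scale, wt Prdm1 relative to Bcl6 was -1.92 ± 0.32 when naive, -4.96 ± 0.726 after 24 h and -3.56 ± 0.756 after 48 h (SD, n = 3 each).

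The inhibitors Id2 and Id3, which lack a DNA-binding region and hold E proteins off DNA, moved in opposite directions. Id2 (ENSMUSG00000020644, chromosome 12, 25093799 to 25097140, minus strand) had 110, 111 and 116 CPM in wt naive, 28.9, 21.4 and 31.5 at 24 h, and 16.8, 18.1 and 28.7 at 48 h. It fell by 2.04 within 24 h (adjusted p = 1.13e-07, SE 0.193) and by 2.41 within 48 h (adjusted p = 1.08e-08, SE 0.196). NK, myeloid and dendritic marker sums were lower over the same steps, and their part in this fall was not tested. In KI the values were 91.9, 94.4 and 84.8 CPM naive, 40.7, 41.4 and 45.4 at 24 h, and 40.8, 28.3 and 42 at 48 h. The KI libraries thus began below every wt library and at 24 h lay above every wt library, while at 48 h KI replicate 3 and wt replicate 5 overlapped. The KI falls were -1.09 (adjusted p = 0.000163, SE 0.188) and -1.29 (SE 0.189, adjusted p = 1.96e-05).

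Id3 (ENSMUSG00000007872, chromosome 4, 136143497 to 136145755, plus strand) had 17, 16.4 and 17.6 CPM in wt naive, 48, 47.7 and 47.4 at 24 h, and 32.2, 26.3 and 35.9 at 48 h. Its rise was 1.49 within 24 h (adjusted p = 1.73e-05, SE 0.216) and 0.89 within 48 h (adjusted p = 0.00168, SE 0.213). KI libraries followed with 18.4, 18.4 and 19.5 CPM naive, 50.2, 41.9 and 58.1 at 24 h, and 39, 37.9 and 46.5 at 48 h, a rise of 1.42 (adjusted p = 4.43e-05, SE 0.215) and 1.13 (SE 0.214, adjusted p = 0.00026). The wt difference of Id3 between 24 h and 48 h was -0.60 (adjusted p = 0.0964), which was called at -0.61 with experiment (adjusted p = 0.0458) or mouse (adjusted p = 0.0317) as a replicate block. Per length, Id2 was 9.14, 9.54 and 9.27 times Id3 in wt naive libraries, 0.849, 0.631 and 0.936 times at 24 h, and 0.734, 0.972 and 1.13 times at 48 h. Among KI libraries the ratio was 7.04, 7.22 and 6.14 naive, 1.14, 1.39 and 1.1 at 24 h, and 1.47, 1.05 and 1.27 at 48 h. The pair therefore went from a large excess of Id2 RNA to near parity within 24 h, and KI libraries lay below wt when naive and above wt at 24 h without overlap.

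**Figure D2:**
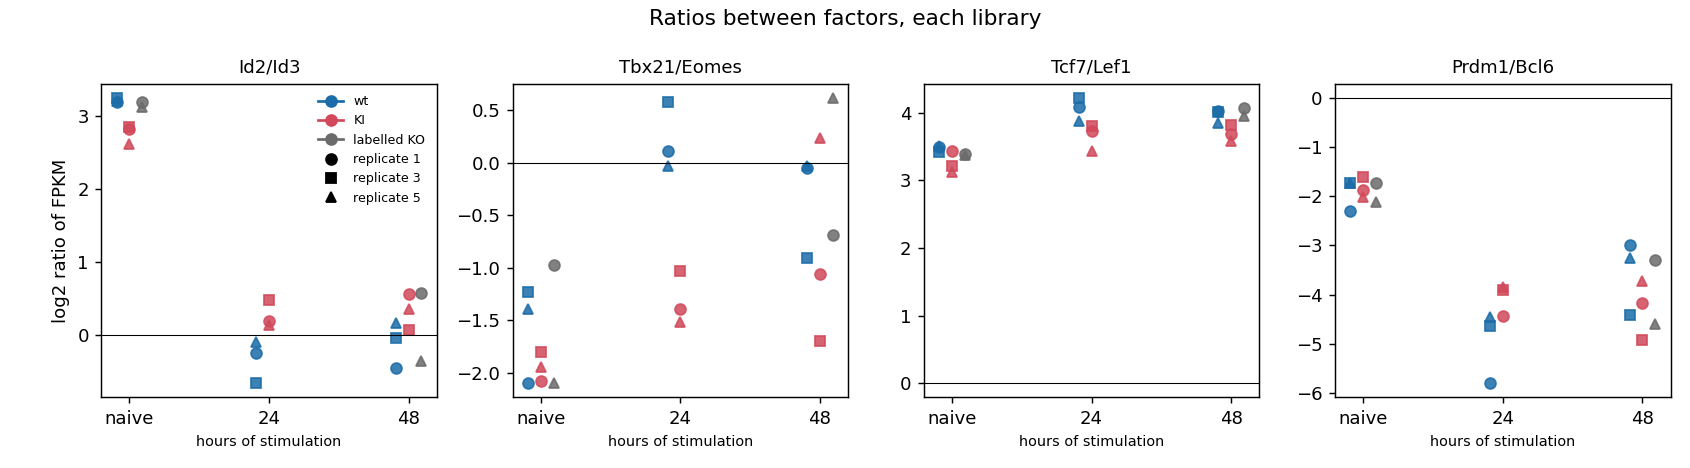
Log2 ratio of FPKM within 4 pairs of factors (y axis) against hours of stimulation (x axis), 1 point per library, coloured by genotype and shaped by replicate. Id2 to Id3 drops from 2.62 to 3.25 in naive wt and KI libraries to around 0 after stimulation, and Tbx21 to Eomes at 24 h is -0.03 to 0.58 in wt and -1.52 to -1.03 in KI.

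Tbx21 (ENSMUSG00000001444, chromosome 11, 97098071 to 97115331, minus strand), which encodes T-bet, the activator of Ifng and other effector genes, had 4.81, 10.8 and 9.17 CPM in wt naive, 31, 75.4 and 25.3 at 24 h, and 62.3, 38.8 and 74.1 at 48 h. The rise was 2.41 within 24 h (adjusted p = 0.00143, SE 0.55) and 2.82 within 48 h (adjusted p = 0.000317, SE 0.559). KI libraries had 6.67, 10.1 and 7.32 CPM naive, 13.2, 28.3 and 9.1 at 24 h, and 22.4, 33.3 and 44.2 at 48 h. The KI difference of 1.07 at 24 h was not called (SE 0.531, adjusted p = 0.12), and naive and 24 h libraries overlapped. The 48 h rise in KI was 2.05 (SE 0.544, adjusted p = 0.00446), a call lost without KI replicate 5 (1.75).

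Eomes (ENSMUSG00000032446, chromosome 9, 118478212 to 118486132, plus strand) followed later. It had 34.3, 42.5 and 40.1 CPM in wt naive, 48, 84.2 and 43.2 at 24 h, and 108, 122 and 126 at 48 h. At 24 h, replicate 3 was high and the difference of 0.58 was not called (SE 0.338, adjusted p = 0.161), while at 48 h Eomes rose by 1.61 (SE 0.345, adjusted p = 0.000662). The step from 24 h to 48 h was 1.02 (adjusted p = 0.0765) and was called with experiment (1.11, adjusted p = 0.009) or mouse (1.07, adjusted p = 0.0102) as a replicate block. KI libraries had 47, 58.8 and 47.4 CPM naive, 57.6, 96.5 and 43.6 at 24 h, and 77.9, 181 and 62.4 at 48 h. The KI rise at 48 h was 1.07 (SE 0.34, adjusted p = 0.0146), and it rested on replicate 3, without which the value was 0.57 and not called. It was also not called with the 2 groups alone (1.05, adjusted p = 0.0585). Eomes shares 118 exon bases with the antisense gene Gm33460. Per length, Tbx21 was 0.234, 0.426 and 0.382 times Eomes in wt naive libraries, 1.08, 1.5 and 0.978 times at 24 h, and 0.966, 0.532 and 0.979 times at 48 h. In KI it was 0.382, 0.49 and 0.349 times Eomes at 24 h, below every wt library of that time, and 0.48, 0.308 and 1.18 times at 48 h, where the groups overlapped.

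Irf4 (ENSMUSG00000021356, chromosome 13, 30749226 to 30766976, plus strand) rose most in both genotypes. Its wt values were 31.2, 60 and 30.3 CPM naive, 391, 410 and 397 at 24 h, and 361, 259 and 372 at 48 h, and those of KI 29.3, 40.5 and 25.8 naive, 374, 278 and 296 at 24 h, and 258, 299 and 417 at 48 h. Stimulated and naive libraries were far apart. The rise within 24 h was 3.30 in wt (adjusted p = 6.18e-06, SE 0.437) and 3.31 in KI (adjusted p = 9.38e-06, SE 0.437). Within 48 h it was 3.03 in wt (adjusted p = 9.94e-06, SE 0.432) and 3.35 in KI (adjusted p = 5.27e-06, SE 0.438). Per length, Irf4 went from 10.2 ± 4.38 to 94.8 ± 2.94 FPKM within 24 h in wt (SD, n = 3), and so from near the level of Eomes (11.2 ± 1.27) and Id3 (11.3 ± 0.286) to above Lef1 (24.6 ± 3.38 at 24 h). In wt naive cells the order by FPKM was Tcf7, Id2 (105 ± 2.22), Lef1 (57.8 ± 1.7), Bach2 (17.4 ± 2.53), Id3, Eomes, Irf4, Tbx21 (3.96 ± 1.51), Bcl6 (3.58 ± 0.524) and Prdm1. Neighbours did not differ beyond their spread from Id3 to Irf4 and between Tbx21 and Bcl6.

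In KI cells, 6 members were called at 24 h (38.7% of all genes, 22.9% higher and 15.8% lower): Bach2, Id3 and Irf4 rose, and Lef1, Id2 and Prdm1 fell. At 48 h, 8 were called (48.6% of all genes, 26.6% higher and 22.1% lower), with Id3, Eomes, Tbx21 and Irf4 up and Tcf7, Lef1, Id2 and Prdm1 down, the same genes and directions as in wt at 48 h. Between 24 h and 48 h no KI member was called by edgeR (2.68% of all genes), and DESeq2 also called 0. An unadjusted p under 0.05 was seen for 3 members and for 15.5% of all genes. Within single mice, Lef1, Tcf7, Id2 and Prdm1 were lower at 48 h than naive in 8 of 8 mice, and Tbx21, Irf4 and Eomes higher in 8 of 8. Id3 was higher in 7 of 8 and Bach2 in 6 of 8, and Bcl6 in 4 of 8.

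**Figure D3:**
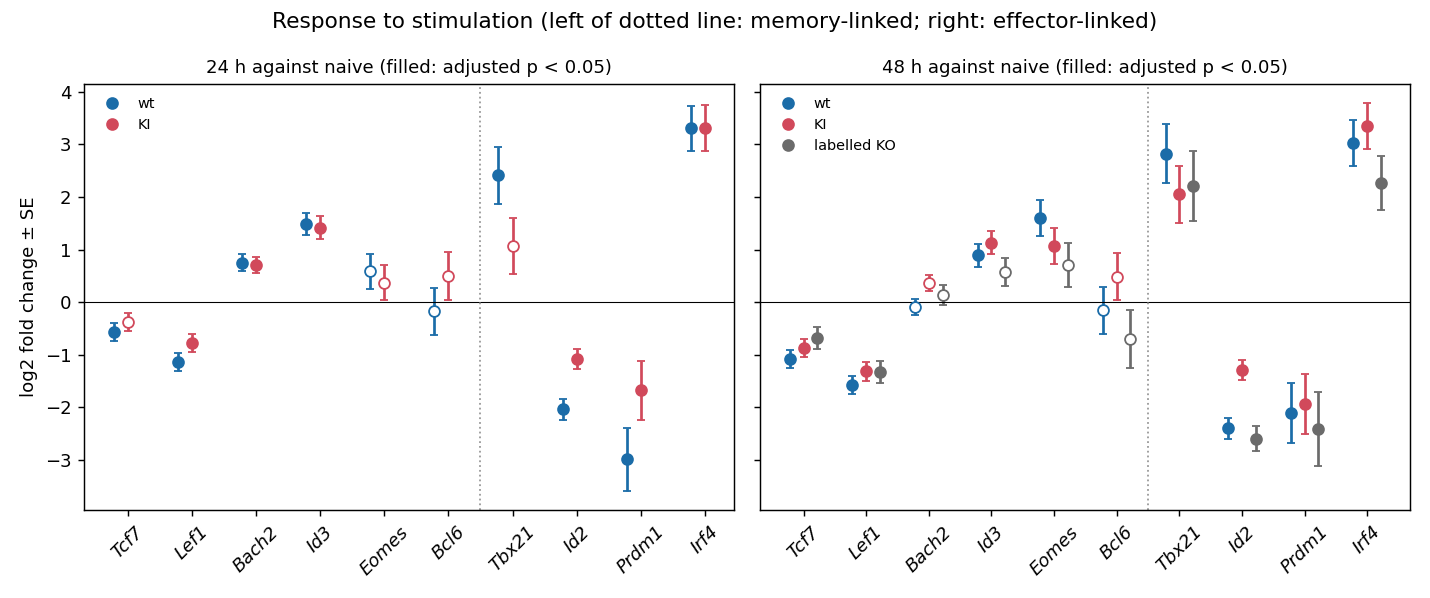
Log2 fold change against naive with its SE (y axis) for each factor (x axis) at 24 h and at 48 h, in wt, KI and libraries labelled KO. Filled points passed the test, and within each class some factors lie above 0 and some below, with Irf4 between 2.26 and 3.35 and Id2 between -2.60 and -1.09.

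The comparison of KI with wt at the same time asks how the Tcaim knock-in alters these factors. At 48 h Id2, an effector-linked factor, was higher in KI by 0.80 on the log2 scale, a 1.75-fold difference (SE 0.188, adjusted p = 0.0198), and was the only member called, where 4.17% of all tested genes were (2.28% higher and 1.89% lower). It was higher in 3 of 3 experiments, by 1.28, 0.64 and 0.55 in experiments 1, 3 and 5. The call was lost when KI replicate 1 or 5 or wt replicate 1 or 3 was left out (0.66 to 0.73) and when the 2 groups were fitted alone (adjusted p = 0.169). Lef1 was 0.57 higher (adjusted p = 0.0638, SE 0.17, and 0.0223 by DESeq2) and Bach2 0.49 higher (adjusted p = 0.0794, SE 0.154, 0.0494 by DESeq2 and 0.0499 with experiment as a replicate block), both in 3 of 3 experiments with no overlap of the groups. Without wt replicate 3 Bach2 was called (0.69, adjusted p = 0.012). Id3 was 0.39 higher in KI (95% interval -0.03 to 0.80) without overlap, and Tcf7 0.30 higher (-0.03 to 0.64) in 3 of 3 experiments with overlap. Of the effector-linked factors other than Id2, Tbx21 was 0.81 lower in 3 of 3 experiments, a log2 value of -0.81 with a 95% interval of -1.84 to 0.21, and Prdm1 (-0.99 to 1.23) and Irf4 (-0.81 to 0.76) had intervals around 0. The part of other cell types in these differences was not tested. The share of all tested genes without overlap of KI and wt was not counted at any time, so such separations only describe the members.

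At 24 h no member was called between KI and wt by edgeR, which called 0.00472% of all genes, or by DESeq2, which called 0.264%. Beside 8.98% of all genes, 4 members had an unadjusted p under 0.05. These were Lef1, 0.68 higher in KI (95% interval 0.34 to 1.01, adjusted p = 0.379), Id2, 0.64 higher (0.28 to 1.01, adjusted p = 0.413), Prdm1, 1.26 higher (0.13 to 2.39, adjusted p = 0.538), and Tbx21, at -1.38 (-2.42 to -0.34, adjusted p = 0.466). Tbx21 was lower in 3 of 3 experiments by similar amounts (-1.23, -1.41 and -1.47), although the groups overlapped because replicate 3 was high in both genotypes. Lef1 (0.59, 0.73 and 0.72), Id2 (0.49, 0.95 and 0.53) and Tcf7 (0.24, 0.32 and 0.28) were higher in every experiment without overlap of the groups, and Irf4 was lower without overlap (-0.06, -0.56 and -0.42).

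In naive cells no member was called between KI and wt by edgeR, which called 0.113% of all genes, or by DESeq2, which called 0.274%. An unadjusted p under 0.05 was seen for 0 members and for 2.05% of all genes. The widest naive differences were 0.39 for Eomes (95% interval -0.27 to 1.05), -0.34 for Irf4 (-1.13 to 0.44), 0.31 for Lef1 (-0.02 to 0.65) and -0.31 for Id2 (-0.68 to 0.05). The groups did not overlap for Lef1, Id3, Eomes (higher in KI) or Id2 (lower in KI). How many of all tested genes did the same was not counted. The sum of 5 memory-phenotype CD8 T cell markers (Cd44, Il2rb, Ccl5, Cxcr3 and Ly6c2) ranged from 375 to 489 CPM in naive wt and from 635 to 806 CPM in naive KI libraries, and its relation to Eomes was not tested. Of the 5, Ly6c2 differed most, at 128 ± 16 CPM in wt and 424 ± 59.7 in KI (SD, n = 3). Il2rb was at 219 CPM in both, Cxcr3 at 8.67 in wt and 10 in KI, and Ccl5 (51.8 and 37.6) and Cd44 (25.3 and 17.4) had lower means in KI.

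The interaction term asks whether the response to stimulation differed between KI and wt. No member passed from naive to 24 h (0% of all genes called), from naive to 48 h (0.387%) or from 24 h to 48 h (0.00472%). Members with an unadjusted p under 0.05 numbered 1, 2 and 1, beside 3.28%, 9.7% and 5.66% of all genes. Id2 came closest: its fall to 48 h was 1.12 smaller in KI on the log2 scale (SE 0.264, adjusted p = 0.0808), and this passed with experiment (adjusted p = 0.0324) or mouse (adjusted p = 0.0327) as a replicate block and with DESeq2 (adjusted p = 0.00938). Over the alternatives its value ranged from 0.99 to 1.38 and its adjusted p from 0.00938 to 0.602. To 24 h the Id2 term was 0.96 (SE 0.264, adjusted p = 1). For Tbx21 to 24 h it was -1.34 (95% interval -2.80 to 0.12).

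**Figure D4:**
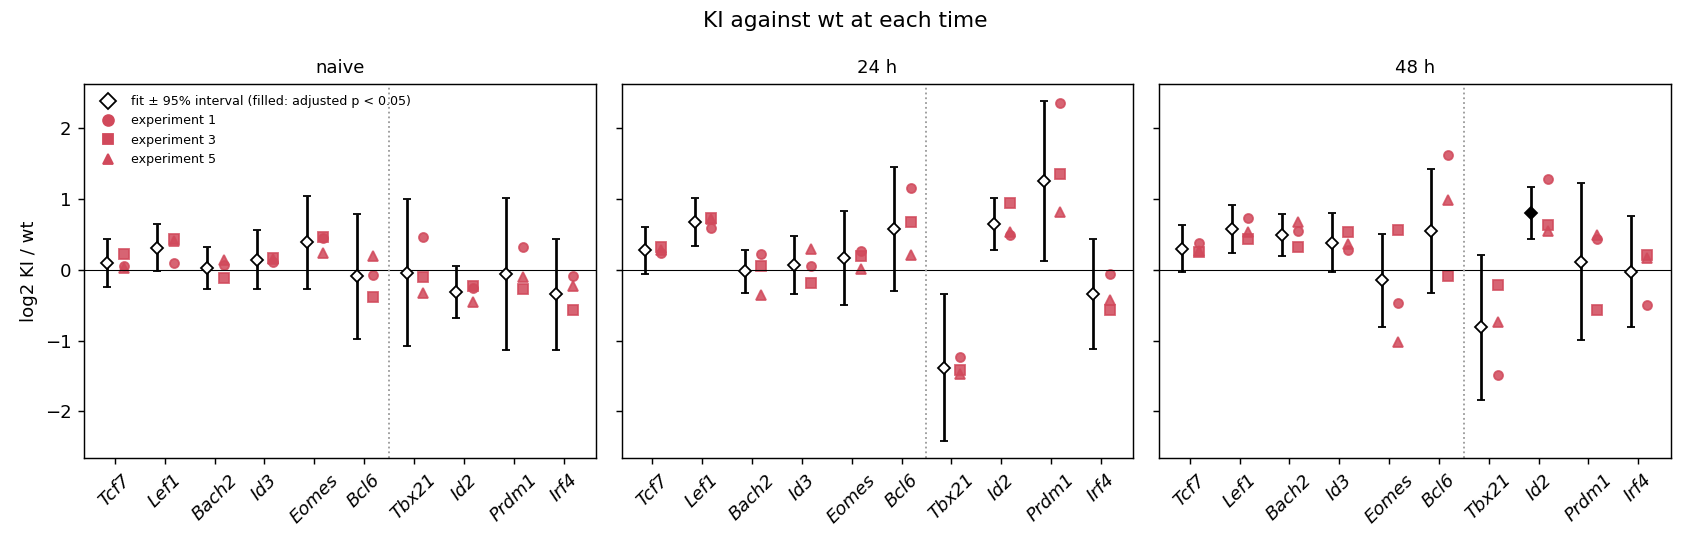
Log2 ratio of KI to wt (y axis) for each factor (x axis) in naive cells, at 24 h and at 48 h. Diamonds give the fitted value with its approximate 95% interval, and red symbols the difference within each experiment. Lef1 lies above 0 in all 3 experiments at all 3 times, Id2 moves from below 0 in naive cells to above 0 after stimulation, and its 48 h value is the only filled diamond.

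Libraries labelled KO gave 6 calls between naive and 48 h (44% of all genes): Tbx21 (2.21, SE 0.667, adjusted p = 0.0121) and Irf4 (2.26, SE 0.512, adjusted p = 0.00156) rose, and Tcf7 (-0.68, SE 0.21, adjusted p = 0.0136), Lef1 (-1.33, SE 0.211, adjusted p = 5.79e-05), Id2 (-2.60, SE 0.242, adjusted p = 1.43e-07) and Prdm1 (-2.41, SE 0.712, adjusted p = 0.0104) fell. The 2 mice differed: Irf4 went from 104 to 177 CPM in replicate 1 and from 23.9 to 440 in replicate 5, and Tcf7 from 1140 to 1100 and from 1550 to 586. The log2 difference was smaller in replicate 1 for every member except Id2 (-2.71, and -2.5 in replicate 5), as for Tbx21 (0.53 and 3.9) and Lef1 (-0.75 and -1.98). The 48 h library of replicate 1 had 211 CPM of CD4 T cell markers, against 35.6 CPM in replicate 5. The part of other cells in these differences between the mice was not tested. Without replicate 5 the values were 0.76 for Irf4, 0.53 for Tbx21 and -0.06 for Tcf7, and none of these 3 was called, while all 3 were called without replicate 1. Each of these fits leaves 1 library per KO group, which is assumed to vary like the other groups. With the 2 groups alone, Id2 was the only member called. Eomes was called with mouse as a replicate block (0.72, adjusted p = 0.0489, and 0.176 without it). The naive library of replicate 1 also had the highest naive values of Tbx21 (17.2 CPM, 5.27 in replicate 5), Prdm1 (7.63 and 3.47) and Bcl6 (30.9 and 18.2), and the part of other cells in this was not tested.
Id2 differed little between these mice, at 118 and 127 CPM naive and 17.9 and 22.5 at 48 h, which is close to wt and, at 48 h, below every KI library. Bach2 had 161 and 151 CPM naive and 173 and 171 at 48 h, Id3 18.1 and 20.6 and then 16.9 and 40.5, Eomes 56.4 and 37.7 and then 67.5 and 86, and Lef1 365 and 503 and then 218 and 127. Against wt, no member was called by edgeR in naive cells (0.0236% of all genes) or at 48 h (0.0283%), nor by DESeq2, which called 0.0519% and 0.137% of all genes. At either time 0 members had an unadjusted p under 0.05, beside 1.31% of all genes in naive cells and 6.92% at 48 h. Without KO replicate 5, which leaves 1 library per KO group, 21.5% of all genes were called at 48 h, with Tcf7 (0.71) and Lef1 (0.60) higher and Id3 (-0.90) lower. Log2 differences ranged from -0.07 (Tcf7) to 0.67 (Irf4) in naive cells and from -0.63 (Eomes) to 0.34 (Bach2) at 48 h. Wt mice from the KO line, and a 24 h time point for KO, were not analysed here. Both KO mice were female, while the wt mice of experiments 1 and 3 were male. In the comparison with wt, line therefore cannot be told apart from label, and sex only within experiment 5.

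To set the classes side by side, the mean log2 CPM of the 6 memory-linked factors minus that of the 4 effector-linked ones was taken in each library, as a description without a test. In wt it was 2.38 ± 0.329 when naive, 2.41 ± 0.26 after 24 h and 1.9 ± 0.405 after 48 h (SD, n = 3 each), and in KI 2.68 ± 0.168, 2.61 ± 0.16 and 2.27 ± 0.477. Group means were higher in KI at each time, and the ranges overlapped at each time. The KI minus wt difference at 48 h of 0.36 was 0.12 with medians, 0.16 without KI replicate 3, 0.19 without wt replicate 5, 0.58 without wt replicate 3 and 0.63 without KI replicate 5. The wt difference of -0.48 between naive and 48 h was -0.83 without Eomes, -0.25 with medians, and -0.26, -0.86 and -0.32 without wt replicates 1, 3 and 5. The means hid movements within a class: from naive to 24 h in wt, medians in place of means gave -0.41 where means gave 0.03. Prdm1, the member with the lowest counts, weighs as much as each other effector-linked factor. Its log2 CPM in wt replicates 1, 3 and 5 was 1.599, 2.52 and 2.27 naive and -2.352, -1.08 and 0.126 at 24 h. This lowered the effector-linked mean at 24 h, and the difference without Prdm1 was not taken. In the libraries labelled KO the difference was 1.67 and 2.82 in naive cells and 2.36 and 1.93 at 48 h, with naive replicate 1 the lowest of all naive libraries.

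**Figure D5:**
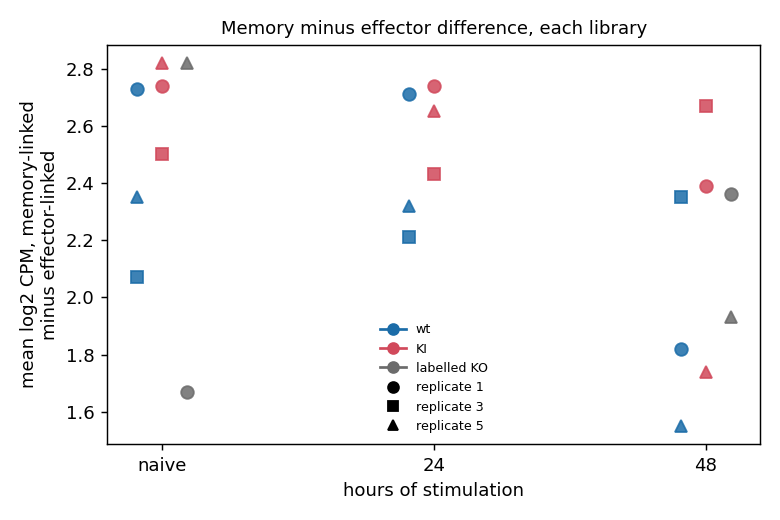
Mean log2 CPM of the memory-linked minus the effector-linked factors (y axis) against hours of stimulation (x axis), 1 point per library, coloured by genotype and shaped by replicate. Wt libraries lie between 2.07 and 2.73 when naive and between 1.55 and 2.35 at 48 h, and KI libraries between 1.74 and 2.67 at 48 h.

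Other genes of the same circuits were read from lists of regulators, partners and targets, beside 26.3% of all tested genes higher and 22% lower at 24 h and 29.5% and 26.8% at 48 h. Of 8 further memory-linked regulators, 1 rose and 5 fell in wt at 24 h, and 2 rose and 4 fell at 48 h. Klf2, a quiescence factor that controls lymphocyte exit, fell by 2.90 at 24 h and 4.73 at 48 h on the log2 scale. Foxo1, its activator, fell by 1.24 and 1.23, and Bcl11b, which keeps T cell identity, by 0.94 and 1.31. Myb rose by 2.33 and 2.48, and Stat3 by 1.37 at 48 h. Of 10 further effector-linked regulators, 3 rose and 3 fell at 24 h and 6 rose and 0 fell at 48 h. Hif1a (1.05 at 24 h and 1.51 at 48 h) and Stat4 (0.81 and 1.37) rose at both times. Nfil3 (-1.57) and Zeb2 (-1.46) fell at 24 h, and Batf3 (3.52) and Bhlhe40 (2.24) rose at 48 h. The call of Nfil3 was lost with no low-count filter (-1.54, adjusted p = 0.0823). The calls of Nfil3 and Zeb2 were lost without wt replicate 3 (-1.12 and -1.42), that of Nfil3 also without wt replicate 1 (-1.53) and that of Zeb2 without wt replicate 5 (-1.53).

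Of 19 partners and antagonists, 3 rose and 12 fell at 24 h and 4 rose and 14 fell at 48 h. Jun (-3.68 and -3.47) and Junb (-3.65 and -2.54), AP-1 subunits at which BATF and IRF4 act and BACH2 competes, fell most, and Irf8 (2.63 at 24 h, 3.55 by 48 h), the closest relative of Irf4, and Mafg (0.98 and 1.43), a small MAF partner of BACH2, rose. Among 8 naive and memory targets, Il7r fell by 3.19 and 3.32 and S1pr1 by 2.60 and 3.90, while Ccr7 rose by 0.58 and 0.73, and in this list 1 rose and 4 fell by 24 h, 1 rose and 5 fell by 48 h. Among 9 effector targets, Gzmb rose by 3.48 and 7.17, Il2rb by 0.83 and 1.11 and Ifng by 3.63 at 48 h. Cx3cr1 (-4.76 and -5.10) and Klrg1 (-3.71 and -4.09) fell. In this list 2 rose and 4 fell by 24 h, and 3 rose and 6 fell by 48 h. Il2rb, Ccl5 and Cxcr3 of this list are also among the memory-phenotype markers given above for naive cells. The calls of Il2rb (0.69) and Ccr7 (0.48) at 24 h were lost without wt replicate 1. Cx3cr1 and Klrg1 were low throughout. Mean CPM in wt naive, 24 h and 48 h libraries were 5.74, 0.209 and 0.167 for Cx3cr1 and 2.77, 0.209 and 0.163 for Klrg1. Cx3cr1 and Klrg1 are also expressed by NK and myeloid cells, whose marker sums were lower over the same steps, and the part of such cells was not tested. Median log2 changes in wt at 24 h and 48 h were -0.84 and -0.57 for the memory-linked regulators, -0.05 and 0.94 for the effector-linked regulators, -0.59 and -0.78 for the partners, -0.91 and -0.64 for the naive and memory targets, and -0.98 and -1.22 for the effector targets, beside -0.048 and -0.04 for all tested genes.

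Between KI and wt, list genes were called at 48 h and at no other time, and 7 of them are given here. KI libraries held 49.6 ± 5 CPM of Klf2 and wt libraries 16.6 ± 3.7 (SD, n = 3), a log2 difference of 1.58 (SE 0.292, adjusted p = 0.00494). Bcl11b (0.56, adjusted p = 0.0235), Bach1 (0.96, adjusted p = 0.0224), Slamf6 (0.93, adjusted p = 0.0167) and Cxcr3 (1.76, adjusted p = 0.0177) were also higher in KI. Slamf6 encodes a surface molecule of TCF-1-positive cells, and Bach1 the widely expressed relative of Bach2. Batf3, a BATF relative that partners with IRF factors, was lower, at 0.548 ± 0.302 CPM against 3.88 ± 1.18 in wt (SD, n = 3; log2 difference -2.82, adjusted p = 0.0165), and so was Tle1, a corepressor of TCF factors (-0.92, adjusted p = 0.00466). Slamf6 belongs to the naive and memory targets, and by list the others were 2 of 8 memory-linked regulators (higher), 1 of 10 effector-linked regulators (lower), 2 of 19 partners (1 in each direction) and 1 of 9 effector targets (higher). Beside these list counts, 4.17% of the whole tested set passed, 2.28% with more RNA in KI and 1.89% with less. Whether any list exceeded this share was not tested. Each of the 7 calls given here was lost without 2 or more single mice, wt replicate 1 among them in every case. Fitted on the 2 groups alone, Bcl11b (adjusted p = 0.103), Slamf6 (0.0639), Bach1 (0.0639) and Tle1 (0.0956) also missed the threshold. Klf2, Cxcr3 and Batf3 kept their calls in that fit. Without wt replicate 1 the values were 1.46 for Klf2, 0.56 for Bcl11b, 0.80 for Bach1, 0.91 for Slamf6, 1.73 for Cxcr3, -2.55 for Batf3 and -0.79 for Tle1.

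By Pearson r of log2 CPM over the 22 libraries, which share the large step from naive to stimulated cells, genes among the most similar of 11588 were as follows. Tcf7 was close to Jak1 (0.968) and Itgb7 (0.968), and Lef1 to Prkcq (0.987), its own antisense gene Gm43352 (0.986) and Slc12a7 (0.981). Lef1 and Bach2 each share exon bases with the antisense gene named here, and the part of shared reads in these values was not tested. Bach2 was closest to Aff3 (0.884), Gm9725 (0.883) and its antisense gene Bach2os (0.878), Id3 to Sptlc1 (0.985), Stx6 (0.981) and Zmat2 (0.969), and Bcl6 to Ifngr1 (0.811), Dyrk1b (0.778) and Ephx1 (0.773). For Eomes they were Mdm1 (0.847), Clcn5 (0.836) and Heg1 (0.83), and for Tbx21 Baz1a (0.949), Irf8 (0.947) and Tbkbp1 (0.945). Id2 had Dazap2 (0.984), Peg13 (0.979) and Kmt5b (0.975), Irf4 had E2f1 (0.974), Cenps (0.971) and Gm6166 (0.969), and Prdm1 had H2-M3 (0.939), Cxcr4 (0.925) and Tyrobp (0.938), an adaptor of NK and myeloid cells. Among the members themselves, Tcf7 and Lef1 (0.947) were the most similar pair, Id2 was nearer to Lef1 (0.906) and Prdm1 (0.81) than to Id3 (-0.611), and Bach2 and Prdm1 were at -0.475.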

How the data were processed

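The members and gene lists were chosen with earlier results of these data known. Per the submitters' processing notes, reads were processed with bcl2fastq 2.20.0, TopHat2 2.1.0, Bowtie2 2.2.5, SAMtools 0.1.19, featureCounts and DESeq2 1.6.3 on GRCm38 (mm10). The strand setting of counting is not given in the sources used here. The deposited table of raw counts was tested. The deposited log2 normalized values (counts divided by 1 factor per library) and the deposited log2 variance-stabilised values served as alternatives, and the deposited FPKM (normalized counts divided by 1 length per gene) served only to compare genes. Genes were kept by filterByExpr (minimum count 10, total 15) and scaled by TMM, and 8 group means were fitted to 22 libraries with edgeR 4.0.16 in R 4.3.3 (14 residual degrees of freedom). The quasi-likelihood test was adjusted by Benjamini-Hochberg over 21183 genes. Intervals are approximate 95% intervals, set from the SE with a normal quantile, and so are narrower than the quasi-likelihood test allows. For Tbx21 in KI at 24 h against naive, the interval of 0.03 to 2.11 excluded 0 beside an unadjusted p of 0.0587 from that test. An interval that excludes 0 is therefore not a call. DESeq2 1.42.0, other scalings and filters, replicate blocks, the compared groups alone and leaving out each mouse were alternatives. The tests were checked on simulated counts. The labels give each mouse and experiment, so replicate numbers pair the libraries: deviations from group means correlated with a median r of 0.22 between KI and wt libraries of 1 experiment (9 pairs, 8 over 0.1) and of 0.155 within a mouse. Between KI and wt libraries of different experiments the median r was -0.178 (18 pairs, 0 over 0.1), and between different mice -0.0192. Deviations within a group sum to 0, so values within and between experiments are linked. Replicate libraries were not duplicates, with a chi-square per degree of freedom of at least 15.4. Text genes were all members, list genes called between genotypes (at most 3 per list), the 2 called list genes of largest change per direction in wt activation, and the 3 genes most similar to each member among those of at least 5 CPM. Some genes that these rules name, and a marker sum, are not reported here. Log2 CPM used a prior count of 2. Positions are those of the deposited tables, and exon overlaps are from GENCODE M21 on GRCm38.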

Additional observations from a re-analysis of the deposited data

How the results depend on the processing

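Of 38 called member results, no value reversed over 376 alternative values, and 27 fell short of the threshold. For members called between 24 h and 48 h in wt (1), DESeq2, experiment as a replicate block and mouse as a replicate block each gave 3, the 2 groups alone gave 0, and leaving out mice gave 0 to 1. In KI that count went from 0 to 2 with the groups alone. In libraries labelled KO, naive to 48 h, it went from 6 to 1 with the groups alone and to 3 to 7 without single mice. For KI against wt at 48 h (1), DESeq2 gave 3, the experiment block 2, the groups alone 0 and left-out mice 0 to 1, and for KO against wt at 48 h (0) left-out mice gave 0 to 3. For the interaction to 48 h (0), DESeq2 and each replicate block gave 1 and left-out mice 0 to 1. The replicate block changed no other count by more than 1.5 times. The memory minus effector difference with medians was -0.41 (means 0.03) for wt 24 h minus naive and 0.64 (means 0.19) for KI minus wt at 24 h. Uncalled values that changed sign without single mice were Bcl6 in wt at 24 h (-0.72 to 0.11) and 48 h (-0.94 to 0.14), and KI minus wt for Bach2 (-0.17 to 0.09), Id3 (-0.05 to 0.18) and Eomes (-0.21 to 0.53) at 24 h and Eomes (-0.76 to 0.12), Prdm1 (-0.14 to 0.33) and Irf4 (-0.26 to 0.12) at 48 h. The cause was not tested. All genes called between KI and wt at 48 h numbered 884, 1714 with DESeq2, 109 with the groups alone and 91 to 1290 without single mice. Where the groups were fitted alone or a mouse was left out, fewer libraries set the spread. Prdm1, with 12 counts in its lowest library, is the member most limited by depth. The main fit treats the 22 libraries as independent, although they come from 8 mice, of which the KO line has 2. Its p-values measure the spread among libraries within groups, pooled over all groups, and do not use the pairing within a mouse. Separate cultures per library are not stated.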
